A study of Mus musculus with 4 samples.

Results

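The proteasome genes of T8 leukemia cells were compared between retroviral transduction with an empty vector and with IRF4. Members were the protein-coding genes of GENCODE M21 whose symbol starts with *Psma*, *Psmb*, *Psmc*, *Psmd*, *Psme*, *Psmf* or *Psmg*. This rule gave 50 of the 55359 genes in the count table, and 48 of them passed the filter on low counts. By role they were 31 constitutive subunits, 5 immunoproteasome genes, 7 assembly chaperones, 3 other activators or regulators and 4 further genes, namely the tissue-restricted *Psma8* and *Psmb11*, the *Psme2* copy *Psme2b* and *Psmc3ip*. *Psmc3ip* shares the start of its symbol with the family but encodes the recombination cofactor HOP2, which is no proteasome subunit.

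T8 is a precursor B cell leukemia (pB-ALL) cell line of genotype Irf4-/-, grown from the primary tumor of 1 C57Bl/6 mouse first on irradiated ST2 stromal cells with IL-7. The lines T8.1 and T8.2 were made from this tumor, and the labels do not say which was used. Both groups share the Irf4-/- genotype and the mutated *Jak3* of the tumor. The IRF4-RV retrovirus carried IRF4 with a GFP marker and the empty EV-RV only the marker, and bulk RNAseq was performed on duplicates of viable cells about a day after transduction. Whether the duplicates were separate transductions is not stated, so p-values measure the spread between these 4 libraries, which may be technical.

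The 26S proteasome is the main protease of the cytosol and nucleus and degrades proteins tagged with ubiquitin. Its 20S core is a barrel of outer alpha rings and inner beta rings, of which 3 beta subunits, encoded by *Psmb5*, *Psmb6* and *Psmb7*, cut peptide bonds. The 19S cap binds, unfolds and feeds in the substrate. In immune cells, and in other cells exposed to interferon-gamma, *Psmb8*, *Psmb9* and *Psmb10* encode catalytic subunits that replace those of *Psmb5*, *Psmb6* and *Psmb7* in newly built cores. The resulting immunoproteasome, together with the PA28 activator encoded by *Psme1* and *Psme2*, favors peptides that fit MHC class I molecules.

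The 4 libraries held between 31230223 and 37817752 counts, of which the 50 members took between 0.745% and 0.836%. Values are given as CPM, counts scaled to a library of 1000000 after TMM correction. A total of 3 counts, the floor used here for a detectable level, equals 0.0824 to 0.0952 CPM, which covers counting error only. *Irf4* had 8070 and 7600 counts in EV-RV cells and 95578 and 90693 counts in IRF4-RV cells, with vector and endogenous reads not separated. EV-RV cells thus held counts at the locus despite their Irf4-/- genotype. Summed counts of 9 B lineage markers were between 99787 and 125841, and none of the 9 was at 0. Of the 9, 44.4% were called by the test given below, against 29.7% of all genes tested. *Blnk* and *Ptprc* rose in IRF4-RV cells, at log2 fold changes of 1.04 and 0.53, and *Igll1* and *Vpreb1* fell, at -1.30 and -1.49. The other 5 were not called. Summed counts of 11 T and NK markers were between 64 and 90, with *Cd8a*, *Cd8b1* and *Ncr1* at 0. Summed counts of 11 macrophage and granulocyte markers were 50 and 48 in EV-RV cells and 292 and 272 in IRF4-RV cells, of which *Mrc1* alone had 24, 23, 260 and 230, with *Adgre1*, *S100a8* and *S100a9* at 0. Summed counts of 9 stromal markers were 1588 and 2819 in EV-RV cells and 1594 and 8052 in IRF4-RV cells, and none of the 6 tested passed the test, with IRF4-RV replicate 2 the highest. The part of these markers in the results was not tested.

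Promoter sequence was searched for letters that transcription factors linked to these genes are known to read, to show which members carry them. RefSeq windows of 300 bases (GRCm38.p6, 250 before to 50 after the start) existed for 42 of the 50 members and for 27025 genes in all, and both strands were searched. GAAA followed after any 2 bases by GAAA, the core of the interferon-stimulated response element that IRF proteins bind, was in the windows of *Psmb3*, *Psmd4*, *Psmd9*, *Psme1* and *Psmg4* and in 3.99% of all genes. GGAA followed after any 2 bases by GAAA, the ETS-IRF composite element that IRF4 shares with PU.1, was in those of *Psmc2* and *Psme1* and in 3.16% of all genes. This *Psme1* match overlaps its response element match, and both lie on the minus strand at bases 10 to 25 from the RefSeq start. TTCNNNGAA, the gamma-activated site of interferon-responsive genes, was in those of *Psmb8*, *Psmd2* and *Psmg1* and in 9.55% of all genes. TGACNNNGC, the core of the antioxidant response element used by the proteasome activator NRF1, was in those of *Psmb5*, *Psmb6*, *Psmc6*, *Psmd12*, *Psmd9* and *Psme4* and in 14.0% of all genes. The windows of *Psmb9*, *Psmb10* and *Psme2* held none of the 4. The stretches below show the matches of the immunoproteasome genes, of a pair of constitutive subunits with the IRF letters and of the 2 constitutive catalytic subunits with a match, in capitals.
Psme1, chr14:55578496-55578525, plus strand: gctgtgcTTTCGCTTTCCCTTCCcgctgcc
Psmb8, chr17:34198087-34198116, plus strand: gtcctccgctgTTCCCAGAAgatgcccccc
Psmb3, chr11:97703261-97703290, plus strand: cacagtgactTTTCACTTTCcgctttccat
Psmd4, chr3:95042675-95042704, minus strand: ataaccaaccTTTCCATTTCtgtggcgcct
Psmb5, chr14:54618024-54618053, minus strand: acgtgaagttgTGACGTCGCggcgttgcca
Psmb6, chr11:70525337-70525366, plus strand: actaaagagagTGACGGAGCgctttacgac

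Of the 48 members tested, 11 differed between IRF4-RV and EV-RV by edgeR's quasi-likelihood test at an FDR of 0.1, 6 higher and 5 lower. This is 22.9% of the members, against 29.7% of the 14637 genes tested, of which 16% were higher and 13.7% lower. The immunoproteasome genes *Psmb9*, *Psme1* and *Psmb8* rose, as did the constitutive subunits *Psmb1* and *Psmd8* and the recombination cofactor *Psmc3ip*. The core chaperones *Psmg1*, *Psmg2* and *Psmg3* fell, as did the nuclear activator *Psme3* and the lid subunit *Psmd7*. All member changes were small, with fitted log2 fold changes between -0.46 and 0.47 and a median of -0.02, against a median of 0.01 over all genes tested. The CPM of the groups did not overlap for 23 of the 48 members, whereas they did not overlap for 61.3% of all genes tested. When only the library size was used for scaling, 3 members were higher and 12 lower. The median over all genes tested also moved down in this setting, to -0.08. The share of all genes called with it was not computed, so the 12 falls are no result about the members. In bulk RNA, fewer cells with a transcript and less of it per cell cannot be told apart.

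**Figure D1:**
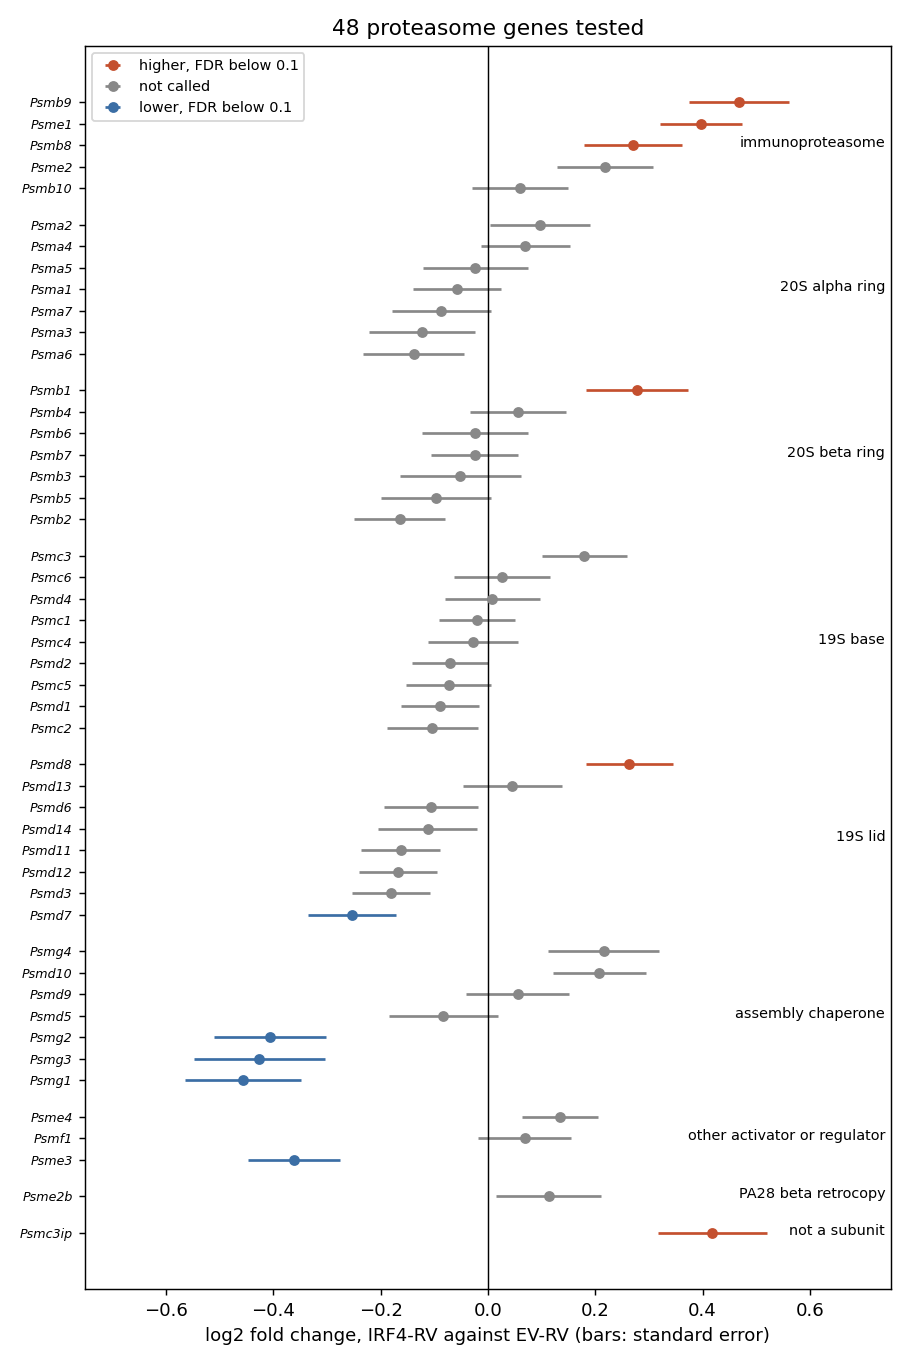
Fitted log2 fold change of IRF4-RV against EV-RV for the 48 members tested, grouped by role, with bars of 1 standard error. The immunoproteasome genes lie to the right of 0, the 20S and 19S subunits lie on either side of it, and *Psmg1*, *Psmg2*, *Psmg3* and *Psme3* lie at the lower end.

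All 5 immunoproteasome genes had a positive fitted log2 fold change, and 3 of them passed the test as higher, where 16% of all genes did. The sign of *Psmb10* depended on the setting, as given below. *Psmb9* (ENSMUSG00000096727, GRCm38 chromosome 17, 34181987 to 34187764, minus strand) encodes the inducible partner of *Psmb6*. Its level was 150.4 and 173.2 CPM in EV-RV cells and 213.5 and 234.1 CPM in IRF4-RV cells. The lower IRF4-RV library thus lay above the higher EV-RV library. Means were 161.8 ± 16.2 and 223.8 ± 14.5 CPM (SD, n = 2), a rise of 38.3% or 0.47 on the log2 scale (SE 0.093, edgeR adjusted p = 0.0095). The rise passed the test in each of the 11 alternative settings, at log2 fold changes between 0.36 and 0.58.

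*Psme1* (ENSMUSG00000022216, chromosome 14, 55578123 to 55581529, plus strand) encodes the alpha chain of PA28 and holds the IRF letters printed above. It was at 179.9 and 188.8 CPM in EV-RV cells and at 233.7 and 251.6 CPM in IRF4-RV cells, without overlap. Means were 184.3 ± 6.33 and 242.7 ± 12.7 CPM (SD, n = 2), a rise of 31.6% or 0.40 on the log2 scale (SE 0.076, edgeR adjusted p = 0.0082). It also passed in each of the 11 settings, at values between 0.31 and 0.43. *Psme2* (ENSMUSG00000079197, chromosome 14, 55587441 to 55591113, minus strand) encodes the beta chain. Its level was 194.3 and 220.0 CPM in EV-RV cells and 229.5 and 252.7 CPM in IRF4-RV cells. The groups did not overlap, but the log2 fold change of 0.22 (SE 0.0895) did not pass the test (edgeR adjusted p = 0.127). It passed without EV-RV replicate 2 (0.31, edgeR adjusted p = 0.0568) and when all genes of at least 1 count were kept (0.22, edgeR adjusted p = 0.0921). The intronless copy *Psme2b* on chromosome 11 was at 16.0, 15.8, 17.0 and 17.4 CPM in the same order and did not pass. Of the 50-base words in *Psme2* exons, 28.3% also occur in exons of another gene, mainly *Psme2b*, so how reads were divided between both is uncertain.

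*Psmb8* (ENSMUSG00000024338, chromosome 17, 34197721 to 34201454, plus strand) encodes the inducible partner of *Psmb5*. It was at 240.0 and 275.2 CPM in EV-RV cells and at 296.4 and 324.8 CPM in IRF4-RV cells, without overlap. The rise of 20.6%, or 0.27 on the log2 scale (SE 0.0909), passed the test (edgeR adjusted p = 0.0717). The call was lost without EV-RV replicate 1 (0.17, edgeR adjusted p = 0.247), without IRF4-RV replicate 2 (0.21, edgeR adjusted p = 0.355) and with library size only (0.18, edgeR adjusted p = 0.139). Its exons overlap those of *Gm20496* on the opposite strand over 14.7% of their length, and without strand in the counting such reads cannot be told apart.

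*Psmb10* (ENSMUSG00000031897, chromosome 8, 105935735 to 105938444, minus strand) encodes the inducible partner of *Psmb7*. Its level was 114.1 and 128.1 CPM in EV-RV cells and 120.5 and 131.9 CPM in IRF4-RV cells, and the groups overlapped. The log2 fold change was 0.06 (SE 0.0892, edgeR adjusted p = 0.687). It lay between -0.03 and 0.15 over the alternative settings and was negative with library size only and without EV-RV replicate 1.

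**Figure D2:**
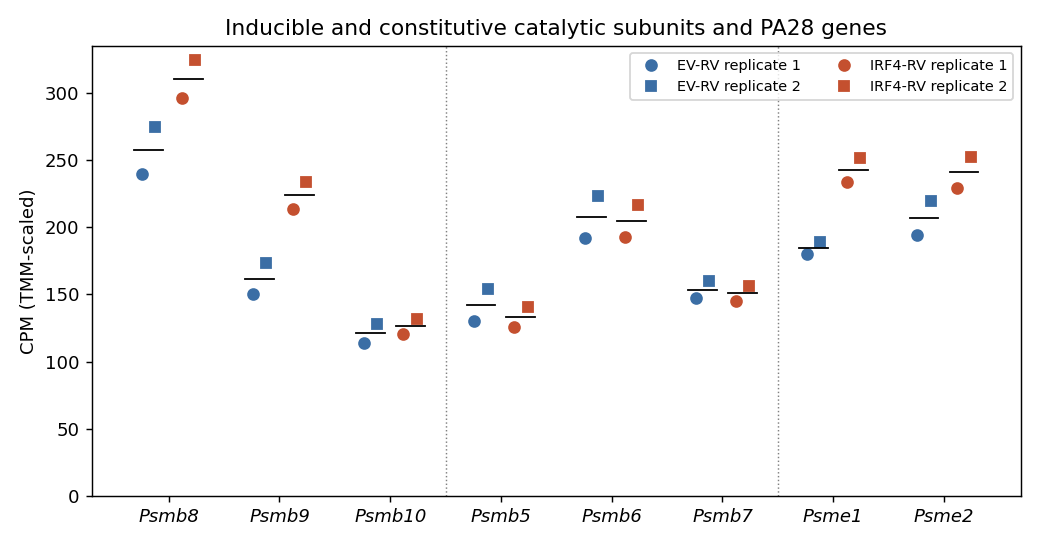
Level in CPM of the inducible catalytic subunits, their constitutive counterparts and the PA28 genes in each library, with circles for replicate 1, squares for replicate 2 and bars for group means. The IRF4-RV points of *Psmb8*, *Psmb9*, *Psme1* and *Psme2* lie above both EV-RV points, whereas those of *Psmb10*, *Psmb5*, *Psmb6* and *Psmb7* overlap them.

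The 3 constitutive catalytic subunits overlapped between groups, and none passed the test. *Psmb5* was at 130.5 and 154.2 CPM in EV-RV cells and at 125.5 and 140.5 CPM in IRF4-RV cells (log2 fold change -0.10, edgeR adjusted p = 0.553). *Psmb6* was at 192.3 and 223.8 CPM against 192.6 and 216.7 CPM (-0.02, edgeR adjusted p = 0.896). *Psmb7* was at 147.2 and 159.9 CPM against 145.3 and 156.5 CPM (-0.02, edgeR adjusted p = 0.865). *Psmb5* shares 54.1% of its 50-base words with other genes, mainly the copy *Gm3375*, which was counted 587, 558, 461 and 571 times.

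Each inducible subunit was then set against its constitutive counterpart within the same library, a ratio that needs no scaling between libraries. The count ratio of *Psmb8* to *Psmb5* was 1.84 and 1.78 in EV-RV cells and 2.36 and 2.31 in IRF4-RV cells. The log2 ratios thus differed by 0.37, with SDs of 0.031 and 0.022. The ratio of *Psmb9* to *Psmb6* was 0.782 and 0.774 in EV-RV cells and 1.11 and 1.08 in IRF4-RV cells, a log2 difference of 0.49 with SDs of 0.010 and 0.027. The counts of *Psmb9* were therefore below those of *Psmb6* in EV-RV cells and above them in IRF4-RV cells. The ratio of *Psmb10* to *Psmb7* was 0.775 and 0.801 in EV-RV cells and 0.829 and 0.843 in IRF4-RV cells, a log2 difference of 0.085 with SDs of 0.034 and 0.017. The ratios of the groups did not overlap for any of the 3 pairs, and how often ratios of other genes do so was not computed. An exact two-sided permutation test over the libraries gave p = 0.333 for each, before and after adjustment over the 3, which is the smallest p that 2 against 2 allows.

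**Figure D3:**
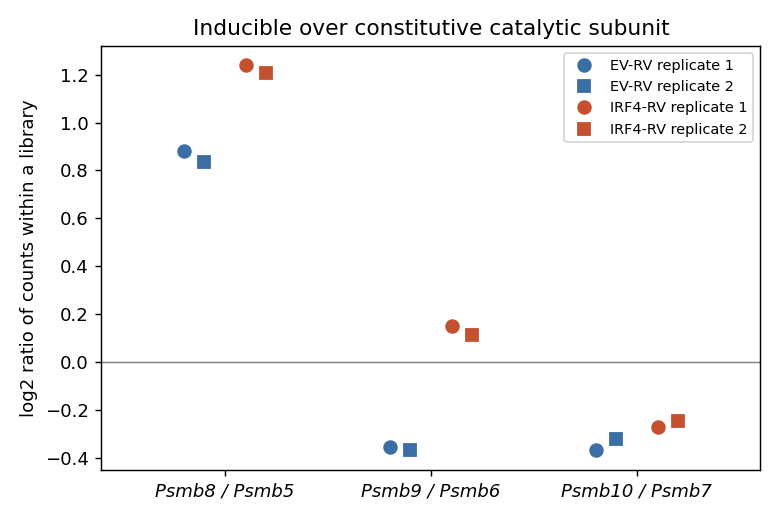
Log2 ratio of the counts of each inducible catalytic subunit to its constitutive counterpart within a library, with circles for replicate 1 and squares for replicate 2. Both IRF4-RV points lie above both EV-RV points in each pair, by 0.37 on average for *Psmb8*, 0.49 for *Psmb9* and 0.085 for *Psmb10*.

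The inducible share of each catalytic pair was also computed per length, from counts divided by the total length of a gene's exons. *Psmb8* held 32.9% and 32.2% of its pair in EV-RV cells and 38.6% and 38.1% in IRF4-RV cells. *Psmb9* held 28.6% and 28.4% in EV-RV cells and 36.2% and 35.6% in IRF4-RV cells. *Psmb10* held 60.9% and 61.6% in EV-RV cells and 62.5% and 62.8% in IRF4-RV cells. The inducible form thus took a larger share in IRF4-RV cells in each library of every pair. With coding length in place of exon length, *Psmb8* held 63.4% and 69.1% on average and *Psmb10* 44.4% and 45.9%, so which pair had the larger inducible share depended on the length used.

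Among the 31 constitutive subunits, 2 rose, 1 fell and 28 did not pass the test. This is 9.68% called, against the 29.7% of all genes. Their median log2 fold change was -0.06, with a range from -0.25 to 0.28, and 9 values were positive and 22 negative. This balance turned with 1 library: without EV-RV replicate 2 the median was 0.02 and 19 of the 31 values were positive, and without EV-RV replicate 1 the median was -0.14 and 3 were positive. The groups did not overlap for 10 of the 31, whereas they did not for 61.3% of all genes tested. Each of the 31 was above the median gene in level, with mean CPM between 97.3 and 361.6 against 17.1 for the median gene tested.

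Their summed level was 5627 and 6323 CPM in EV-RV cells and 5698 and 6048 CPM in IRF4-RV cells, and the groups overlapped. The summed level of the 5 immunoproteasome genes was 878.7 and 985.3 CPM in EV-RV cells and 1094 and 1195 CPM in IRF4-RV cells, without overlap. The 5 genes made up 13.5% of both sums together in each EV-RV library, and 16.1% and 16.5% in the IRF4-RV libraries.

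The subunits moved together between libraries of the same group. Replicate 2 was above replicate 1 for 31 of 31 constitutive subunits in EV-RV cells, by a median of 0.17 on the log2 CPM scale, and for 26 of 31 in IRF4-RV cells, by a median of 0.10. Over all genes tested this held for 7505 and 7252 of 14637. Both medians were larger in size than the median fitted change of the 31. Each immunoproteasome gene was therefore also set against the sum of the 31 in the same library. *Psmb9* was 2.67% and 2.74% of that sum in EV-RV cells and 3.75% and 3.87% in IRF4-RV cells, a log2 difference of 0.49. *Psme1* was 3.20% and 2.99% against 4.10% and 4.16%, a log2 difference of 0.42. For *Psmb8*, *Psme2* and *Psmb10* the log2 differences were 0.29, 0.24 and 0.084. None of the 5 overlapped between groups on this scale, for which the share over all genes was not computed. On the CPM scale, 61.3% of all genes tested did not overlap. The exact two-sided permutation p was 0.333 for each, the smallest possible, and this scale was chosen after the data were seen.

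**Figure D4:**
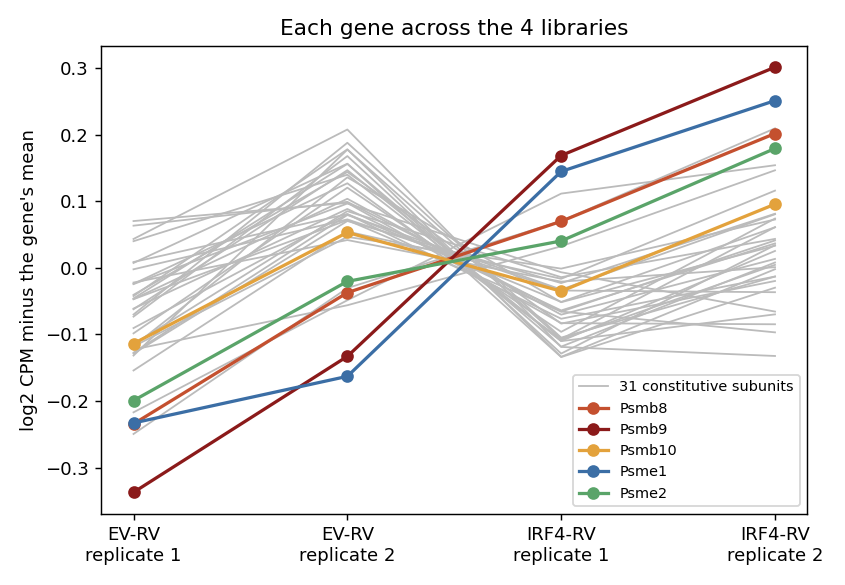
Log2 CPM of each gene minus its mean over the 4 libraries, for 31 constitutive subunits in grey and the 5 immunoproteasome genes in color; lines join the values of 1 gene and mark no order in time. All grey lines are higher in EV-RV replicate 2 than in EV-RV replicate 1, and *Psmb9* and *Psme1* are highest in both IRF4-RV libraries.

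By structure, the alpha ring gates the entry of substrate, and none of its 7 genes was called by DESeq2 or the main edgeR test. An unadjusted p of edgeR under 0.05 was met by 0 of them in that test, with log2 fold changes from -0.14 to 0.10. Of all genes tested, 29.7% were called. *Psma6*, at -0.14, did pass with library size only (-0.23, edgeR adjusted p = 0.0855). Without EV-RV replicate 1, *Psma6* and *Psma3* were at -0.25 and -0.26. *Psma7* had the highest mean CPM of the ring and was at 271.3 and 313.6 CPM in EV-RV cells and at 262.5 and 288.3 CPM in IRF4-RV cells. In the beta ring, 1 of 7 genes was called. *Psmb1*, a non-catalytic beta subunit, was at 228.4 and 265.8 CPM in EV-RV cells and at 285.0 and 313.9 CPM in IRF4-RV cells, a rise of 0.28 on the log2 scale (SE 0.0948, edgeR adjusted p = 0.0748). Its groups did not overlap, but the call was lost without EV-RV replicate 1, without IRF4-RV replicate 2, with library size only and at an FDR of 0.05 (log2 fold change down to 0.16, edgeR adjusted p up to 0.343). *Psmb4*, also non-catalytic, had the highest mean CPM of the ring, at 330.2 and 379.1 CPM against 355.4 and 382.0 CPM, and overlapped. *Psmb3*, which holds the IRF letters printed above, overlapped as well, with a log2 fold change of -0.05 (edgeR adjusted p = 0.794).

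The 19S base holds the ATPases that unfold the substrate and receptors for ubiquitin. None of its 9 genes passed the main edgeR test or DESeq2, and 0 had an unadjusted p under 0.05 in that edgeR test. Their log2 fold changes lay between -0.10 and 0.18, and 29.7% of all genes were called. With library size only, *Psmd1* and *Psmd2* passed as lower (-0.18 and -0.16, edgeR adjusted p = 0.0803 and 0.0950). *Psmd2*, a scaffold of the base, had the highest mean CPM, at 350.6 and 369.3 CPM in EV-RV cells and at 343.0 and 342.3 CPM in IRF4-RV cells (log2 fold change -0.07, edgeR adjusted p = 0.527). *Psmd4*, a ubiquitin receptor whose IRF letters are printed above, had a log2 fold change of 0.01 (edgeR adjusted p = 0.960).

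In the 19S lid, which removes ubiquitin from the substrate, 1 of 8 genes rose and 1 fell. *Psmd8* was at 244.3 and 274.5 CPM in EV-RV cells and at 306.8 and 316.0 CPM in IRF4-RV cells, a rise of 0.26 on the log2 scale (SE 0.0811, edgeR adjusted p = 0.0529). *Psmd7*, the partner of the deubiquitinase subunit encoded by *Psmd14*, was at 169.5 and 189.9 CPM against 151.4 and 150.0 CPM and fell by 0.25 on the log2 scale (SE 0.0815, edgeR adjusted p = 0.0613). Neither overlapped between groups. *Psmd8* lost its call without EV-RV replicate 1, without IRF4-RV replicate 1 and without IRF4-RV replicate 2 (edgeR adjusted p up to 0.243), and with library size only (0.17, edgeR adjusted p = 0.106). *Psmd7* lost it without EV-RV replicate 2, without IRF4-RV replicate 1 and without IRF4-RV replicate 2 (edgeR adjusted p up to 0.263). Both lost it at an FDR of 0.05. *Psmd14* itself was at 172.4 and 198.4 CPM against 164.0 and 179.0 CPM and did not pass (log2 fold change -0.11, edgeR adjusted p = 0.439).

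The assembly chaperones, which build the core and the base but are not part of the finished particle, held 3 of the 5 falls. These were 42.9% of the 7 chaperones, against 13.7% of all genes tested that were lower, and the other 4 were not called. *Psmg1* and *Psmg2* encode PAC1 and PAC2, which act as a pair on the alpha ring. *Psmg1* (chromosome 16, 95979933 to 95990960) was at 46.3 and 56.0 CPM in EV-RV cells and at 37.2 and 37.4 CPM in IRF4-RV cells, and fell by 0.46 on the log2 scale (SE 0.108, edgeR adjusted p = 0.0197). *Psmg2* (chromosome 18, 67641599 to 67654162) was at 34.9 and 41.1 CPM against 28.7 and 28.6 CPM and fell by 0.41 (SE 0.104, edgeR adjusted p = 0.028). The groups did not overlap for either gene.

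*Psmg3* and *Psmg4* encode PAC3 and PAC4, which form the other pair. *Psmg3* was counted 502, 568, 409 and 456 times, and its level of 15.0 and 18.0 CPM in EV-RV cells and 12.1 and 12.5 CPM in IRF4-RV cells fell by 0.43 on the log2 scale (SE 0.122, edgeR adjusted p = 0.0414). *Psmg4* went the other way without passing the test, at 30.9 and 36.1 CPM against 37.9 and 39.9 CPM (log2 fold change 0.22, edgeR adjusted p = 0.183). *Psmg1* kept its call without any single library, whereas *Psmg2* (edgeR adjusted p = 0.124) and *Psmg3* (edgeR adjusted p = 0.191) lost it without EV-RV replicate 2.

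The chaperones of the base, *Psmd5*, *Psmd9* and *Psmd10*, did not pass the test, with log2 fold changes of -0.08, 0.06 and 0.21. *Psmd5* had the highest mean CPM of the chaperones and was at 52.5 and 62.5 CPM against 54.9 and 53.6 CPM. *Psmd9* shares 24.9% of its 50-base words with other genes, mainly *Gm26745* on the opposite strand.

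**Figure D5:**
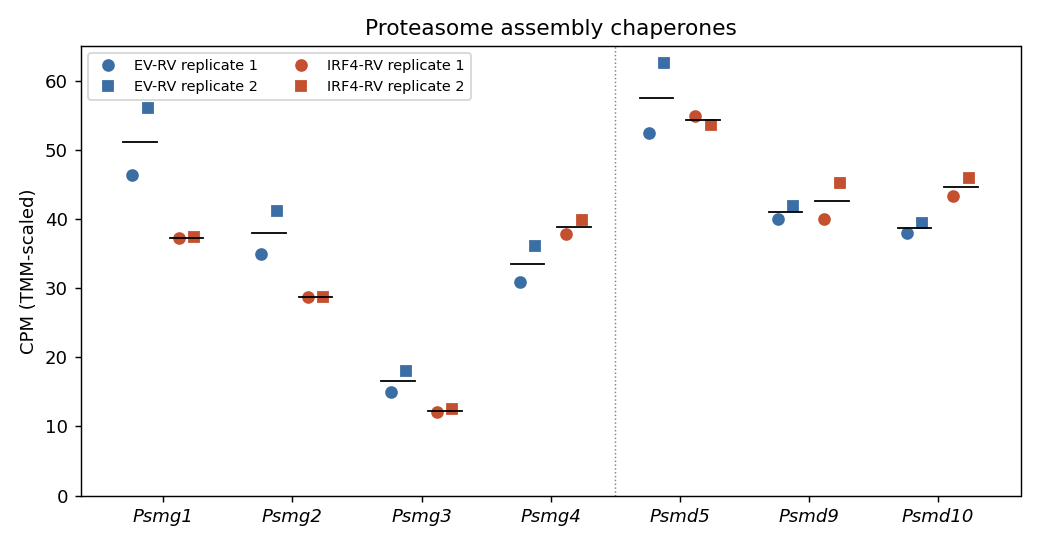
Level in CPM of the 7 assembly chaperones in each library, with the core chaperones to the left and the base chaperones to the right of the dotted line, circles for replicate 1, squares for replicate 2 and bars for group means. Both IRF4-RV points of *Psmg1*, *Psmg2* and *Psmg3* lie below both EV-RV points, and those of *Psmg4* and *Psmd10* lie above them.

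Of the other activators and regulators, *Psme3* fell and *Psme4* and *Psmf1* did not pass the test. *Psme3* encodes PA28 gamma, a nuclear activator that degrades some proteins without ubiquitin. It was at 336.3 and 386.2 CPM in EV-RV cells and at 283.6 and 279.0 CPM in IRF4-RV cells, without overlap. The fall was 0.36 on the log2 scale (SE 0.0853, edgeR adjusted p = 0.0198), and it passed in each of the 11 alternative settings, at values between -0.47 and -0.26. The PA28 family thus held a rise and a fall. Within a library, the count ratio of *Psme1* to *Psme3* was 0.535 and 0.489 in EV-RV cells and 0.824 and 0.902 in IRF4-RV cells. The log2 difference was 0.75, with SDs of 0.092 and 0.092 and no overlap (exact two-sided permutation p = 0.333, the smallest possible). This ratio was chosen after the data were seen. Its genes were already called in opposite directions without overlap, so it had to separate the groups and adds no support.

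*Psme4*, which encodes the large activator PA200, was at 214.6 and 207.7 CPM against 236.3 and 227.5 CPM (log2 fold change 0.14, edgeR adjusted p = 0.223). *Psmf1*, which encodes the regulator PI31, had a log2 fold change of 0.07 (edgeR adjusted p = 0.626). The tissue-restricted core subunits were not tested. *Psma8*, a testis alpha subunit, had 0 counts in every library, and *Psmb11*, the catalytic subunit of thymic epithelium, had 0, 0, 3 and 4. *Psmc3ip* was at 14.2 and 15.5 CPM in EV-RV cells and at 19.9 and 19.7 CPM in IRF4-RV cells, a rise of 0.42 on the log2 scale (SE 0.101, edgeR adjusted p = 0.0222). Its exons overlap *Mlx* on the opposite strand over 21.2% of their length, and its call was lost without EV-RV replicate 1 (edgeR adjusted p = 0.119).

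The inducible genes *Psmb8* and *Psmb9* lie beside genes of peptide loading. *Psmb9* adjoins *Tap1*, and *Psmb8* lies between *Tap1* and *Tap2*, the genes of the peptide transporter, in the MHC region of chromosome 17. *Tap1* was at 236.2 and 233.1 CPM in EV-RV cells and at 490.1 and 516.2 CPM in IRF4-RV cells, a rise of 1.10 on the log2 scale (SE 0.0718, edgeR adjusted p = 4.3e-05). The count ratio of *Psmb9* to *Tap1* was 0.637 and 0.743 in EV-RV cells and 0.436 and 0.453 in IRF4-RV cells, a log2 difference of -0.63. *Psmb9* thus rose by less than its neighbor. The same held for *Psmb8*, with a log2 fold change of 0.27 against the 1.10 of *Tap1*. *Tap1* lies on the opposite strand and overlaps *Psmb9* over 5.79% of its exon length, where reads cannot be told apart without strand. *Tap2* did not pass (log2 fold change 0.19, edgeR adjusted p = 0.119), and the ratio of *Psmb8* to *Tap2* overlapped between groups, at 3.18 and 3.58 against 3.35 and 3.81. Between members, the ratio of *Psmb9* to *Psmb8* was 0.626 and 0.629 in EV-RV cells and 0.720 and 0.721 in IRF4-RV cells, a log2 difference of 0.20. The ratio of *Psme1* to *Psme2*, which lie near each other on chromosome 14, was 0.926 and 0.858 against 1.02 and 0.996, a log2 difference of 0.18. These neighbor ratios were chosen after the data were seen, and no exact two-sided permutation p over the 4 libraries can be below 0.333.

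Of 11 genes of class I peptide loading, 5 rose and 6 did not pass the test, 45.5% called against the 29.7% of all genes. *Tapbp* and *Tapbpl*, which encode the peptide editors tapasin and TAPBPR, rose by 1.50 and 1.42 on the log2 scale and *Tap1* by 1.10. Of 12 genes of interferon-gamma signaling, 7 rose and 1 fell, 66.7% called against the same 29.7%. *Ifng*, 1 of the 7, was counted 0, 0, 29 and 35 times and entered the test only through the group where it is high. *Stat2*, which encodes a signal transducer of interferon receptors, rose by 1.88, and the transcription factor gene *Irf8* fell by 0.32.

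Of 23 genes whose products assist the proteasome outside the *Psm* family, 1 rose, 6 fell and 16 did not pass the test. This is 30.4% called in either direction, close to the 29.7% of all genes, and the median log2 fold change was -0.10. The split by direction was less even than over all genes, of which 16% were higher and 13.7% lower. *Nub1*, which targets the ubiquitin-like NEDD8 and FAT10 systems to the proteasome, rose by 0.36 (SE 0.103, edgeR adjusted p = 0.0428). The largest falls were those of *Ubqln4* and *Rad23b*, which encode shuttle factors for ubiquitinated proteins, and *Usp14*, which encodes a deubiquitinase of the cap, at log2 fold changes of -0.54, -0.39 and -0.39. *Ubqln4* was at 87.3 and 83.1 CPM in EV-RV cells and at 60.0 and 57.0 CPM in IRF4-RV cells, without overlap.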

How the data were processed

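The authors aligned reads to GRCm38 with STAR 2.4.0j and counted them per gene with featureCounts, per the submitters' processing notes and the methods. The authors deposited whole-number counts without normalization. Strand and multimapping settings are not given in the sources used here. The label protocols mention T11, whereas titles and tissue give T8, and the libraries were used as T8. Symbols were taken from GENCODE M21, which matched 52083 of 55359 genes.

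Genes passing filterByExpr (14637) were tested in R 4.3.3 with edgeR 4.0.16, using TMM factors between 0.964 and 1.054, quasi-likelihood F tests, with p-values adjusted after Benjamini-Hochberg over all genes tested, at an FDR of 0.1, the cutoff of the study. Group was the only term. SE is the log2 fold change divided by the root of F. Ratios within a library were compared with an exact two-sided permutation test. Named genes were *Irf4*, the immunoproteasome genes and their counterparts, up to 4 called members and the member with the highest mean CPM per class, members not tested, and the 3 largest called rises and falls of the other lists, of which 1 is not reported here. Members named for their promoter letters, as the partner of a called member or for shared sequence were chosen after their values were seen. The members and lists were chosen with earlier results of these data known. Alternatives were DESeq2 1.42.0, its size factors, library size only, other filters, a replicate block, an FDR of 0.05 and leaving out each library. The procedure was run on simulated data, whose outcome is not reported here and is not used as support for any call. The libraries differed by more than sampling noise (chi-square per degree of freedom 15.1 with EV-RV and 14.2 with IRF4-RV) and were used as separate samples. Protein sequences were not used here.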

Additional observations from a re-analysis of the deposited data

How the results depend on the processing

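The changes of *Psmb9*, *Psme1*, *Psmg1* and *Psme3* kept their direction and passed the test in each of the 11 alternative settings, and no called change turned its direction in any of them. DESeq2 called 11 members, and edgeR with DESeq2's size factors called 11, the same genes as TMM in both. Of all genes, DESeq2 called 25.3%. Among the alternatives this share was computed for DESeq2 and the replicate block only, so counts in the other settings have no background beside them. With library size only, 15 members were called, 3 higher and 12 lower, with 8 constitutive subunits called, 0 higher and 8 lower, 11 partners called, a median over all genes of -0.08 and *Psmb8* at 0.18 (edgeR adjusted p = 0.139). With at least 50 counts in every library of 1 group, 8 members were lower, and 6 constitutive subunits were called, 4 of them lower. With all genes of at least 1 count, *Psme2* passed at 0.22 (edgeR adjusted p = 0.0921). At an FDR of 0.05, 7 members were called, 3 of them higher, with 0 constitutive subunits called (0 higher and 0 lower) and 4 partners, and *Psmb8* at 0.27 (edgeR adjusted p = 0.0717) was lost. That count of 0 had 4 subunits at an unadjusted p under 0.05.

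Same-numbered libraries deviated from their group means with a correlation of 0.284 across genes, but with only 2 pairs, which the labels do not tie to a batch, the numbers were not taken as pairing the samples. With the replicate block, 21 members were called, 11 higher and 10 lower, against 43.7% of all genes, with 9 constitutive subunits called, 6 of them lower, and *Psme2* at 0.22 (edgeR adjusted p = 0.000562). All 11 members called without the block were among the 21, and the 10 gained included *Psma6* of the alpha ring and *Psmc3* of the base.

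Leaving out each library in turn gave between 7 and 11 members called, between 2 and 8 higher and between 2 and 9 lower. It gave between 0 and 5 constitutive subunits called, between 0 and 2 higher and between 0 and 5 lower, and between 3 and 6 partners. *Psmb8* was between 0.17 and 0.37 (edgeR adjusted p up to 0.355), and *Psme2* between 0.12 and 0.31 (edgeR adjusted p from 0.0568). The call of *Psmb8* was lost without EV-RV replicate 1 or IRF4-RV replicate 2. With coding length, the share per length with EV-RV and IRF4-RV was 63.4% and 69.1% for *Psmb8*, 45.8% and 54.3% for *Psmb9*, and 44.4% and 45.9% for *Psmb10*, against 32.5% and 38.3%, 28.5% and 35.9%, and 61.3% and 62.6% with exon length, as the exons hold untranslated parts of differing length. The cause of the other shifts was not tested. *Psmb11*, with 3 and 4 counts in the IRF4-RV libraries, was too low to be tested at this depth.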
